A study of Nematostella vectensis with 30 samples.

Results

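miR-2023 is a microRNA of the sea anemone Nematostella vectensis, and both arms of its hairpin are described here, the guide nve-miR-2023-3p and the star nve-miR-2023-5p. The members were chosen by name, as all rows that start with nve-miR-2023, which gave 2 of the 255 arms in the table of immunoprecipitated small RNAs and the same 2 of 257 arms in the knockdown table. miR-2023 itself was selected on the measured level of its 3p arm, the most abundant guide in the NveAGO1 IPs of primary polyps, so the levels in those libraries, and every comparison that uses them, are given as values with no test. The study asked how miRNAs are divided between NveAGO1 and NveAGO2, the Argonaute proteins of this animal. The IP libraries hold small RNAs recovered with NveAGO1, with NveAGO2 or with rabbit IgG as control at 3 stages (early planula, primary polyp, adult male), with 2 libraries in each of 9 groups. Small RNAs of whole planulae were also sequenced 3 days after fertilization, after zygotes had been injected with a morpholino (MO, an antisense oligo that blocks translation) against NveAGO1 or NveAGO2 or with a control MO. The NveAGO1 knockdown (KD) has its own control MO group, called control 1, and the NveAGO2 KD has control 2, with 3 libraries in each of these 4 groups, and each library comes from a pool of injected animals. No other genetic change is given for any group, and the labels do not say which of the study's MOs each KD library received. Neither Argonaute transcripts nor proteins are among the rows used here, so the KDs could not be checked on their targets in these libraries. Since the MOs block translation, transcript levels would not be a direct check. The study checked its KDs on protein by Western blot and reports the targeted bands as missing or much weaker.

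A miRNA hairpin is cut by Dicer into a short duplex, and 1 strand of it, the guide, is kept by an Argonaute protein while the other, the star, is usually discarded. The guide directs Argonaute to transcripts, largely through a short stretch near its 5′ end called the seed. In bilaterian animals most miRNA targets match little more than the seed, whereas in Nematostella targets with extensive complementarity, which are cut as in plants, are common. The IgG IP shows what is recovered without an antibody to either Argonaute.

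The arms are shown because the results below turn on where each of them was found. They are given 5′ to 3′ as in the deposited table, and the capitals mark bases 2 to 8, the seed.
nve-miR-2023-3p: aAAGAAGUacaagugguaggg
nve-miR-2023-5p: cUGCCACCuguauuucuauca
Both arms are 21 bases long, a length shared by 34 of 136 guides and 29 of 116 stars after arms with repeated counts were taken once. The 3p arm starts with A, as did 35 of the 136 guides, while 82 guides started with U. The 5p arm starts with C, as did 27 of the 116 stars. No other guide had bases 2 to 8 in common with the 3p arm (0 of 135), and no other star had them in common with the 5p arm (0 of 115), so no seed family was available for comparison. A predicted duplex of the arms (RNAduplex) had 16 base pairs and an energy of -22.7 kcal/mol. In it bases 3 to 19 of the 3p arm faced bases 1 to 17 of the 5p arm, and the only unpaired position within was base 12 of the guide facing base 8 of the star. The place of the hairpin in the genome is not given here, since no genome of the study's build was used.

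IP levels are counts divided by the genome-mapped reads of the library and multiplied by 1000000 (CPM), the scale of the study. Genome-mapped reads ranged from 456537 to 13170153 per IP library and miRNA counts from 9878 to 7827194, and the IgG IPs held 9878 to 66334 miRNA counts, the fewest in each stage. In replicate 2 of the polyp NveAGO1 IP the miRNA counts (6192172) exceeded the genome-mapped reads (6153804), so a CPM there is close to a share of all miRNA counts. The KD libraries held 23095 to 70294 miRNA counts, and 61 of their arms were deep enough to test against 196 in the IP table. Replicates were treated as separate samples of a group. Comparisons used edgeR's quasi-likelihood test with Benjamini-Hochberg adjustment over all arms tested, and an arm was called at an adjusted p under 0.05. Each fit took all IP or all KD groups together and shared information on the spread across arms. Its p-values rest on that shared estimate and not only on the spread between the libraries compared. The edgeR test returns no standard error. The SE given with its values is the absolute log2 fold change divided by the square root of the F statistic of the test.

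In primary polyps nve-miR-2023-3p filled most of the NveAGO1 IP. It had 1879185 and 4047663 counts there, which is 572847 and 657750 CPM, and it took 57.9% and 65.4% of all miRNA counts. It was the first of the 136 guides in both libraries, and the next guide, nve-miR-2025-3p, took 27.0% and 17.5% of guide counts against 58.2% and 65.8% for nve-miR-2023-3p. The NveAGO2 IPs of the same stage had 33326 and 35060 CPM, and the guide had rank 4 there in both, with 5.02% and 5.90% of miRNA counts. The IgG IPs had 18025 and 16384 CPM. The NveAGO1 libraries lay 16.3 to 19.7 times above the NveAGO2 libraries and 31.8 to 40.1 times above the IgG libraries over the 4 pairings of each. Both ratios use the NveAGO1 level for which the miRNA was chosen. The shares rest on deep libraries, and 95% Wilson intervals of a single library, 57.8% to 57.9% in the first and 65.3% to 65.4% in the second, are narrower than the distance between the replicates. Intervals here cover counting error only.

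**Figure D1:**
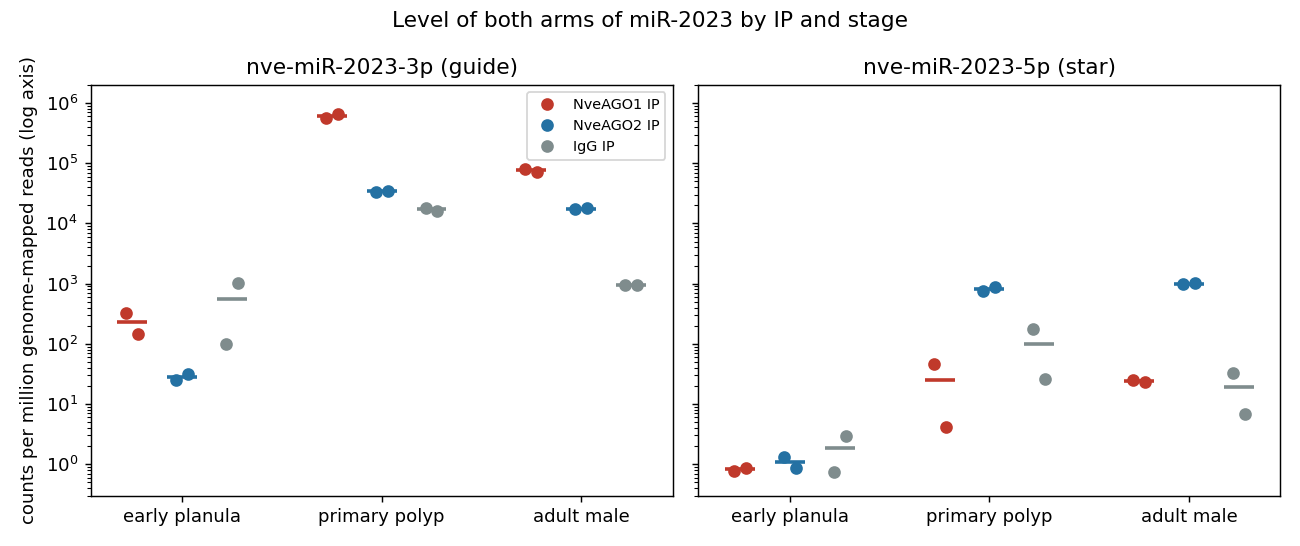
Counts per 1000000 genome-mapped reads of nve-miR-2023-3p (left) and nve-miR-2023-5p (right) on a log axis, 1 point per library and a line at the mean of 2, for NveAGO1 (red), NveAGO2 (blue) and IgG (grey) IPs of 3 stages. The guide is highest in NveAGO1 of polyps and males, while the star is highest in NveAGO2 of the same stages (758 to 1006 CPM).

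In adult males the guide was again abundant in the NveAGO1 IPs, at 80984 and 72483 CPM, and at 17336 and 17972 CPM in the NveAGO2 IPs. The IgG IPs had 942 and 952 CPM. The 3 kinds of IP did not overlap. nve-miR-2023-3p was higher in NveAGO1 than in NveAGO2 by a log2 fold change of 2.12 (SE 0.84, adjusted p = 0.037, edgeR), in a comparison where 12.2% of 196 arms were called higher in NveAGO1. The median log2 fold change over all 196 arms was -1.22, and 163 arms lay below the guide. The size of this difference depended on the scale, at 2.73 with TMM factors (adjusted p = 0.0019) and 4.62 with DESeq2 size factors (adjusted p = 8.2e-09). The call was lost with the sum of miRNA counts as library size (log2 1.14, adjusted p = 0.12) and whenever any of the 4 libraries was left out (log2 2.04 to 2.20). The guide is itself a large part of that sum. On it the median of all arms was -2.20, and 163 arms again lay below the guide. Over IgG the guide was higher by 6.34 in NveAGO1 (SE 1.01, adjusted p = 2.8e-05) and by 4.22 in NveAGO2 (SE 0.92, adjusted p = 0.00023), where 51.5% and 76.5% of arms were called higher. On the sum of miRNA counts these values were 1.03 (adjusted p = 0.35) and -0.11 (adjusted p = 0.96). That scale takes out the share of miRNAs among the reads of a library, which differs between Argonaute and IgG IPs. The medians of all arms were 3.86 and 4.65 on genome-mapped reads and 0.0 and 0.97 on the sum of miRNA counts. With DESeq2 size factors the guide was at 3.80 (adjusted p = 1.5e-05) and -0.82 (adjusted p = 0.61). The guide took 17.0% and 18.6% of the few miRNA counts in the IgG libraries, against 30.0% and 42.5% in NveAGO1 and 14.7% and 18.05% in NveAGO2. In the NveAGO1 IPs the guide shared the lead with nve-miR-100-5p, which took 58.5% and 40.04% of guide counts against 30.1% and 42.8% for nve-miR-2023-3p.

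Early planulae held little of the guide. The NveAGO1 IPs had 319 and 147 CPM, from 3700 and 1512 counts, and the guide ranked 14 and 17 among the 136 guides, with 1.12% and 0.558% of miRNA counts. The NveAGO2 IPs had 25.5 and 31.0 CPM, with ranks of 34 and 49. The guide was higher in NveAGO1 than in NveAGO2 also at this stage, by 3.05 on the log2 scale (SE 0.87, adjusted p = 0.0045), and 10.7% of arms were called higher. Without the first NveAGO1 library the value was 2.38 (adjusted p = 0.064). The IgG libraries had 98.5 CPM of the guide in the first and 1029 CPM in the second, the latter above both NveAGO1 libraries. This was also seen for nve-miR-100-5p, with 310 and 3362 CPM in IgG against 2644 and 1953 CPM in NveAGO1. The guides nve-miR-2025-3p, nve-miR-2022-3p and nve-miR-2030-5p were lower in both IgG libraries than in both NveAGO1 libraries. Of the miRNA counts in these IgG libraries, nve-miR-2023-3p took 4.71% and 14.2%. NveAGO1 against IgG gave -1.27 (SE 0.82, adjusted p = 0.25), where 2.55% of arms were called lower and the median of all arms was 1.88. Without the second IgG library the value turned to 1.24. On the sum of miRNA counts it became -3.49 (adjusted p = 0.00015), with a median of 0.0. The guide was lower in NveAGO2 than in the control, with -4.32 on the log2 scale (SE 0.92, adjusted p = 0.00023), where only 3.06% of arms were called lower and the median of all arms was 3.90. Without the second IgG library that difference was -1.80. Other scales made it larger, from -7.14 with TMM factors to -7.97 on the sum of miRNA counts, where the medians of all arms were 1.26 and 0.23. nve-miR-100-5p was also called lower in NveAGO2 than in the control (-2.78, SE 0.93, adjusted p = 0.0094). In early planulae the NveAGO1 libraries thus overlapped the control IP and the NveAGO2 libraries lay below it, and how much of the guide was bound to either Argonaute there was not tested.

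**Figure D2:**
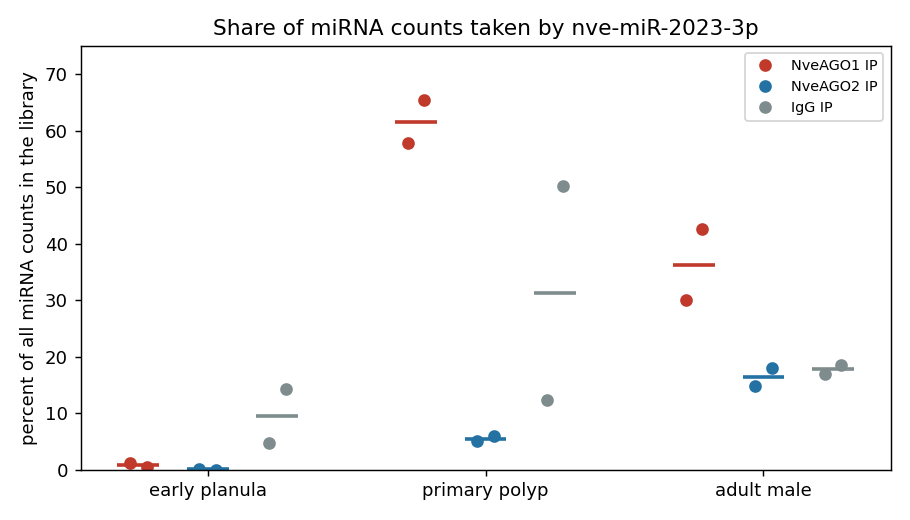
Percent of all miRNA counts in each library that belonged to nve-miR-2023-3p, 1 point per library and a line at the mean of 2, by stage and IP. The guide took 57.9% and 65.4% in NveAGO1 of primary polyps, under 1.2% in NveAGO1 of early planulae, and 4.71% to 50.2% in the IgG IPs.

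The order of the 9 groups by mean level of the guide was NveAGO1 of primary polyps, NveAGO1 of adult males, NveAGO2 of primary polyps and NveAGO2 of adult males, followed by IgG of primary polyps, adult males and early planulae and then by NveAGO1 and NveAGO2 of early planulae. Neighbours in this order did not overlap, except for NveAGO2 of adult males with IgG of primary polyps (mean 17654 ± 450 and 17204 ± 1160 CPM, SD, n = 2) and for the pairs that include IgG of early planulae (564 ± 658 CPM, SD, n = 2). NveAGO2 of primary polyps lay 1.85 to 2.14 times above its IgG, a log2 fold change of 0.99 (SE 0.81, adjusted p = 0.26). In that comparison 59.2% of arms were called higher in NveAGO2, the median over all arms was 3.13, and 21 of 196 arms lay below the guide. With the sum of miRNA counts the value was -2.52 (adjusted p = 0.0089), and the median over all arms was 0.41. The guide took 12.4% and 50.2% of miRNA counts in the polyp IgG libraries.

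Between stages, where library sizes were the sums of miRNA counts, the guide rose in the NveAGO2 IPs from early planulae to later stages. The log2 fold change was 7.17 from early planulae to primary polyps (SE 0.82, adjusted p = 2.2e-09), and no other arm of the 195 had a larger one. The guide was chosen for its level in NveAGO1 IPs of primary polyps. This rise to the same stage and its rank are therefore not independent of that choice. The log2 fold change was 8.76 from early planulae to adult males (SE 0.87, adjusted p = 3.0e-11). In these comparisons 7.14% and 32.1% of arms were called higher, and the median of all arms was -1.04 and 0.34. In the NveAGO1 IPs the guide was higher in adult males than in early planulae by 5.43 (SE 0.75, adjusted p = 3.2e-08), with 20.9% of arms called higher. On genome-mapped reads these 3 values were 10.24, 9.29 and 8.36, in the same order, and all were called. The control IP also held more of the guide in polyps than in planulae. Male IgG libraries (942 and 952 CPM) lay within the range of the planula ones (98.5 and 1029 CPM). The IgG mean was 17204 CPM for polyps, 947 CPM for males and 564 CPM for planulae. As a share of miRNA counts these means were 31.3%, 17.8% and 9.47%, and polyp and planula IgG libraries overlapped on that scale. Whether the rise in either Argonaute IP exceeded any rise in the control was not tested. From primary polyps to adult males the guide in NveAGO2 rose by 1.59 (SE 0.64, adjusted p = 0.030), with 43.9% of arms called higher and a median of 1.28. That last call did not hold on other scales: with genome-mapped reads it was -0.95 (adjusted p = 0.33), and leaving out either polyp library or the second adult male library gave an adjusted p of 0.10 to 0.15. The difference between NveAGO1 and NveAGO2 IPs did not itself change between adult males and early planulae by a detectable amount (log2 -0.93, SE 1.14, adjusted p = 0.78, 1.53% of arms called lower), although on the sum of miRNA counts it was smaller in adult males (-3.33, adjusted p = 0.0031).

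The star nve-miR-2023-5p was found mostly in the other Argonaute. In primary polyps it had 758 and 878 CPM in the NveAGO2 IPs, from 3684 and 11569 counts. The NveAGO1 IPs had 45.4 and 4.23 CPM, from 149 and 26 counts, although the guide led these same libraries. The IgG IPs had 175 and 26.3 CPM. The NveAGO2 libraries lay above all others, by 16.7 to 208 times for NveAGO1, and the NveAGO1 and IgG libraries overlapped. Over IgG the star was higher in NveAGO2 by 3.04 (SE 1.10, adjusted p = 0.023), close to the median of all arms (3.13), with 59.2% of arms called higher. This call was lost on the sum of miRNA counts (0.38, adjusted p = 0.93), where the median of all arms was 0.41. It was also lost without either NveAGO2 library or the second IgG library. Over the fits without 1 library the value ranged from 2.22 to 4.96.

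In adult males the star had 983 and 1006 CPM in the NveAGO2 IPs, from 3976 and 4912 counts, and 25.0 and 23.2 CPM in the NveAGO1 IPs. It had 32.2 and 6.75 CPM in the IgG IPs, so NveAGO1 lay within the range of the control. The star was lower in NveAGO1 than in NveAGO2 by a log2 fold change of -5.36 (SE 1.22, adjusted p = 0.0010), where 30.1% of arms were called lower, and 4 of 196 arms had a more negative value. With DESeq2 size factors it was -2.87 (adjusted p = 0.0032). NveAGO2 was above IgG by 5.66 (SE 1.24, adjusted p = 0.00024), where 76.5% of arms were called higher, but on the sum of miRNA counts by 1.35 (adjusted p = 0.37). The median of all arms was 4.65 on the first scale and 0.97 on the second. In these NveAGO2 IPs nve-miR-2023-5p took 28.2% and 32.4% of all star counts, beside nve-miR-100-3p with 30.8% and 25.1%. In early planulae the star had 4 to 14 counts per library and 0.752 to 2.95 CPM, with no order among the 3 kinds of IP. The comparison of NveAGO1 with NveAGO2 gave -0.42 there (SE 1.12, adjusted p = 0.78), so a difference was not detectable at this depth. In the NveAGO2 IPs the star rose from early planulae to primary polyps by 6.30 (SE 0.98, adjusted p = 2.3e-06) and from polyps to adult males by 2.82 (SE 0.81, adjusted p = 0.0030). With genome-mapped reads as library size these were 9.49 (adjusted p = 5.0e-06) and 0.28 (adjusted p = 0.85). The rise to primary polyps ends at the stage for which miR-2023 was chosen, so it is not independent of that choice.

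**Figure D3:**
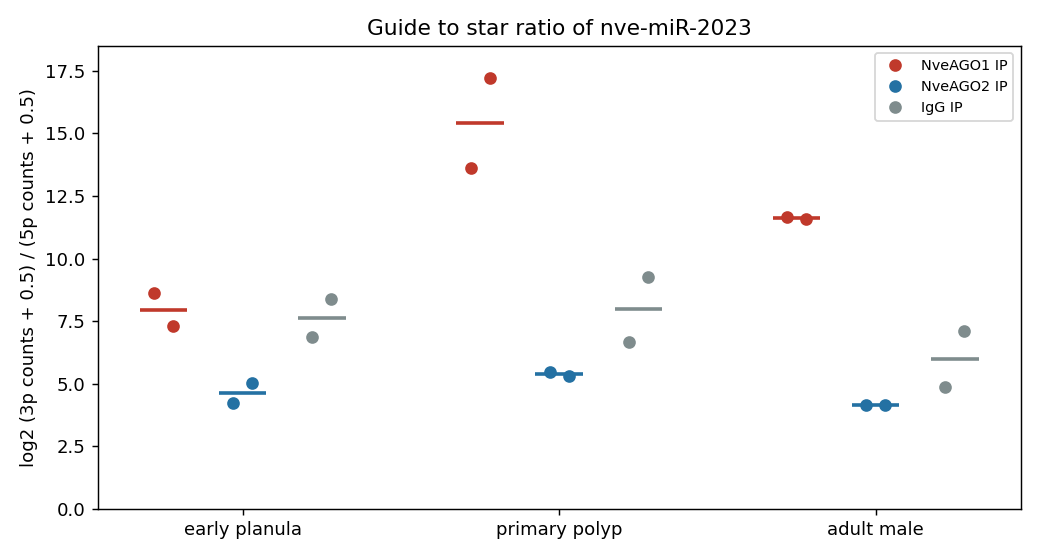
Log2 ratio of nve-miR-2023-3p to nve-miR-2023-5p counts (0.5 added to each) in every IP library, 1 point per library and a line at the mean of 2, by stage and IP. The ratio lies between 4.14 and 5.46 in the 6 NveAGO2 libraries and between 7.31 and 17.22 in the 6 NveAGO1 libraries.

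Taking both arms of a library together removes its size from the comparison. In the NveAGO1 IPs of adult males the star was 0.0308% and 0.0321% of both arms (95% Wilson intervals 0.0270% to 0.0352% and 0.0269% to 0.0382%), about 1 star for 3243 and 3118 guides. In the NveAGO2 IPs it was 5.37% and 5.30%, or 1 star for 17.6 and 17.9 guides. The guide to star ratio was higher in NveAGO1 by 7.48 on the log2 scale (SE 0.86, adjusted p = 2.0e-15, edgeR with the library as block), among 89 miRNAs of which 16.9% were called higher. In early planulae the star was 0.243% and 0.592% of both arms in NveAGO1 and 4.98% and 2.67% in NveAGO2, on 9, 9, 14 and 4 star counts. That ratio was higher in NveAGO1 by 3.43 (SE 0.97, adjusted p = 0.0021, 18% of miRNAs called higher), and by 2.87 (adjusted p = 0.15) without the first NveAGO2 library. In primary polyps the shares were 0.00793% and 0.000642% in NveAGO1, which differ by more than counting error between the replicates, and 2.22% and 2.44% in NveAGO2. Between the NveAGO2 IPs of adult males and primary polyps the ratio did not differ detectably (log2 -1.24, SE 0.77, adjusted p = 0.25, 10.1% of miRNAs called lower). The IgG libraries had star shares of 0.160% to 3.30%, and in each stage both lay between the NveAGO1 and the NveAGO2 libraries, except in early planulae, where they ranged from 0.286% to 0.758% and overlapped NveAGO1. The star share of miR-2023 was also set among all miRNAs with at least 100 guide counts in a group, miR-2023 included. The share was above the median in NveAGO2 of adult males (5.33% pooled against a median of 0.915% over 62 miRNAs). In NveAGO1 of that stage it was below the median (0.0313% against 1.04% over 60 miRNAs), and 17 of the 60 had a lower share. It was near the middle in NveAGO2 of primary polyps (2.39% against 1.93%, with 44 of 87 miRNAs below) and in NveAGO1 of early planulae (0.344% against 0.342%, with 26 of 51 below), and above the median in NveAGO2 of early planulae (4.18% against 1.40%, with 36 of 61 below).

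A guide that was called higher in NveAGO1 while its star was called higher in NveAGO2 was found in adult males for miR-2023 and miR-100 of the 62 miRNAs with both arms tested. For miR-2023 this rests on the guide call of that stage, which was lost without any of its 4 libraries and on the sum of miRNA counts, as given above. Beside this count, 15.7% of the 134 guides tested were called higher in NveAGO1 and 29.0% of the 62 stars tested in NveAGO2. By sign of the fold change alone, 9 of the 62 miRNAs had this pattern in adult males. In early planulae the pattern was found for miR-100 and miR-2024g, where 11.2% of guides were called higher and 27.4% of stars lower in NveAGO1. miR-2023 did not show it there, since its star was not called. As a share of the mean CPM of both Argonaute IPs, the guide was 81.3% with NveAGO1 in adult males (80.1% to 82.4% over the 4 pairings) and the star 2.37% (2.26% to 2.48%). In early planulae the guide was 89.2% (82.6% to 92.6%) and the star 43.1% (36.8% to 50.8%). In primary polyps, where the guide was chosen, the shares were 94.7% for the guide and 2.95% for the star.

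**Figure D4:**
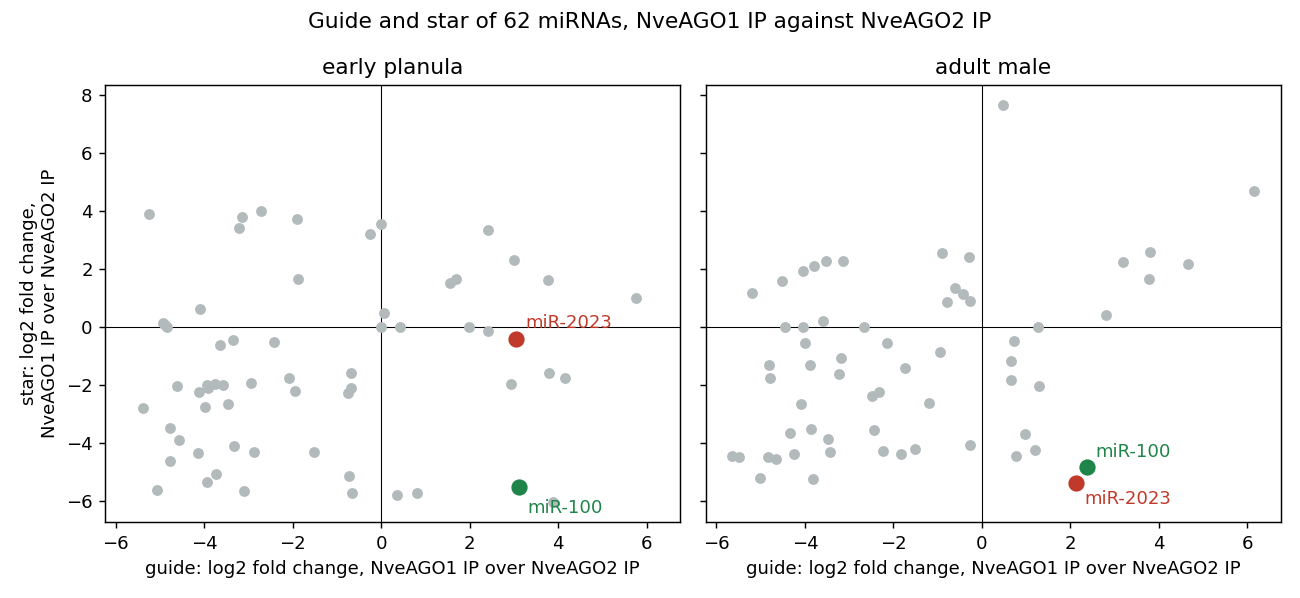
Log2 fold change of NveAGO1 IP over NveAGO2 IP for the guide (horizontal axis) and the star (vertical axis) of 62 miRNAs, in early planulae (left) and adult males (right), with miR-2023 in red and miR-100 in green. In adult males miR-2023 lies at 2.12 for the guide and -5.36 for the star, and in early planulae at 3.05 and -0.42.

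The other guides of the study's NveAGO1 list that carry established names, 16 beside nve-miR-2023-3p, were used for comparison. The study drew this list from these libraries, so its direction is no independent evidence. In adult males 8 of the 16 were called higher in NveAGO1 than in NveAGO2 and 1 lower, against 15.7% and 30.6% of all 134 guides, with a median log2 fold change of 2.0 beside -1.13. Of the 9 list members that could be tested for the guide to star ratio, 5 were called higher in NveAGO1 and 1 lower, against 16.9% and 15.7% of the 89 miRNAs. nve-miR-100-5p, a member of an ancient miRNA family found across animals, had a ratio difference of 7.21 in adult males (SE 0.87, adjusted p = 1.8e-14) beside the 7.48 of miR-2023, and only 3.41% of its star was with NveAGO1. nve-miR-2025-3p and nve-miR-2030-5p had smaller differences of 3.85 (SE 1.09) and 3.54 (SE 0.87), with adjusted p of 0.0019 and 0.00040. The guide nve-miR-2022-3p was 96.2% with NveAGO1 in adult males, but its star had 1 count in the 4 Argonaute libraries of that stage, too few to compare. In NveAGO2 over IgG, 1 of the 16 was called higher and 2 lower in early planulae (60.4% and 4.48% of all guides), 4 higher in primary polyps (59.7%) and 13 higher in adult males (78.4%), and the difference between stages was not tested.

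The guide whose levels were most like those of nve-miR-2023-3p over the 18 IP libraries was nve-miR-2025-3p (Pearson r 0.90, Spearman rho 0.85 on log2(CPM + 1)). It was followed by nve-miR-2037-3p (0.90 and 0.91), nve-miR-9425 (0.85 and 0.87), nve-miR-2026-5p (0.85 and 0.83) and a newly annotated guide (0.80 and 0.78). The median r over the 133 other guides was 0.32. The libraries share stages, antibodies and depth, so these values describe a common profile and carry no test. The profile was not followed at one level: nve-miR-2037-3p had a mean of 3126 CPM in NveAGO1 of primary polyps and nve-miR-9425 of 735 CPM, against 615298 for nve-miR-2023-3p. nve-miR-2025-3p, at 220230 CPM in NveAGO1 of polyps, had only 4304 CPM in NveAGO1 of adult males, where nve-miR-2023-3p had 76734. The star followed its own guide less closely (r 0.60, rho 0.59), and the stars most like nve-miR-2023-5p were a newly annotated star (r 0.87), nve-miR-2040a-5p (r 0.85) and nve-miR-2031-3p (r 0.81), with a median of 0.44 over 61 stars.

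In the KD planulae miR-2023 was a minor miRNA. Counts were scaled to the mean count of 4 spike-in RNAs and are given per 1000000 of that mean. nve-miR-2023-3p had 20 to 135 counts per library, 0.0504% to 0.255% of miRNA counts, and nve-miR-2023-5p had 1 to 12. In NveAGO1 KD the guide had scaled counts of 2120, 1120 and 1071, against 763, 1108 and 748 in control 1. KD replicates 2 and 3 lay near the highest control, and the groups overlapped. Each KD library was above the control of the same number on this scale, by little for replicate 2. As a share of miRNA counts replicates 2 and 3 were below theirs (0.0924% against 0.172% and 0.0711% against 0.0929%). The log2 fold change was 0.69 (SE 0.50, adjusted p = 0.23, edgeR, 42.6% of arms called higher). The median over the 61 arms tested was 0.82, so the guide lay 0.13 below that median. On the sum of miRNA counts, where that median was -0.13, the guide was at -0.39 (adjusted p = 0.57). A fall of the guide in NveAGO1 KD was not detected at this depth. Of the 10 other members of the NveAGO1 list tested here, 5 were called lower and 2 higher, against 13.6% and 38.6% of the 44 guides, with a median of -1.18.

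In NveAGO2 KD the guide had scaled counts of 352, 1051 and 279, against 1602, 2046 and 1025 in control 2. KD replicates 1 and 3 were below every control and replicate 2 was just above the lowest. Each KD library was below the control of the same number, also as a share of miRNA counts. The guide fell by 1.50 on the log2 scale (SE 0.51, adjusted p = 0.024), where 21.3% of 61 arms were called lower. The median over these arms was -0.33, which puts the guide 1.18 below that median. With the number of the replicate as block the guide was at -1.64 (adjusted p = 0.0058). The call was lost on the sum of miRNA counts (-0.85, adjusted p = 0.16), with all 6 control libraries as 1 group (-1.14, adjusted p = 0.071), and without KD replicate 1 or 3 or control replicate 2 (adjusted p 0.086 to 0.12). The effects of the KDs on the guide differed, being higher in NveAGO1 KD by 2.20 (SE 0.71, adjusted p = 0.0088, 41.0% of arms called higher). Relative to the median of all arms that difference was 1.13, and it was 0.45 (adjusted p = 0.56) on the sum of miRNA counts. The control groups were themselves unlike, with means of 873 ± 203 and 1558 ± 512 (SD, n = 3).

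The star was higher in the NveAGO1 KD libraries, on few counts. Its scaled counts were 184, 259 and 214, from 4, 12 and 10 counts, against 33.7, 41.5 and 64.5 in control 1, from 3, 3 and 5 counts. All KD libraries lay above all controls, a pattern that 28.5% of the 186 arms with any count showed, and the means differed by 4.70 times. On the sum of miRNA counts the means differed by 2.41 times (log2 1.27, against 2.23 on the spike-in scale), still without overlap, and the median log2 fold change of the 17 stars tested on the spike-in scale was 1.19. The exact two-sided permutation test gave p = 0.10 on both scales, the smallest that 3 against 3 libraries allow. edgeR without a filter on low counts gave a log2 fold change of 2.22 (SE 0.66, adjusted p = 0.0075), with 15.1% of arms called higher, and with the number of the replicate as block 2.18 (adjusted p = 0.0037). In NveAGO2 KD the star had 52.8, 114 and 13.9 against 89.0, 136 and 94.4 in control 2, and the groups overlapped (exact two-sided permutation p = 0.30).

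**Figure D5:**
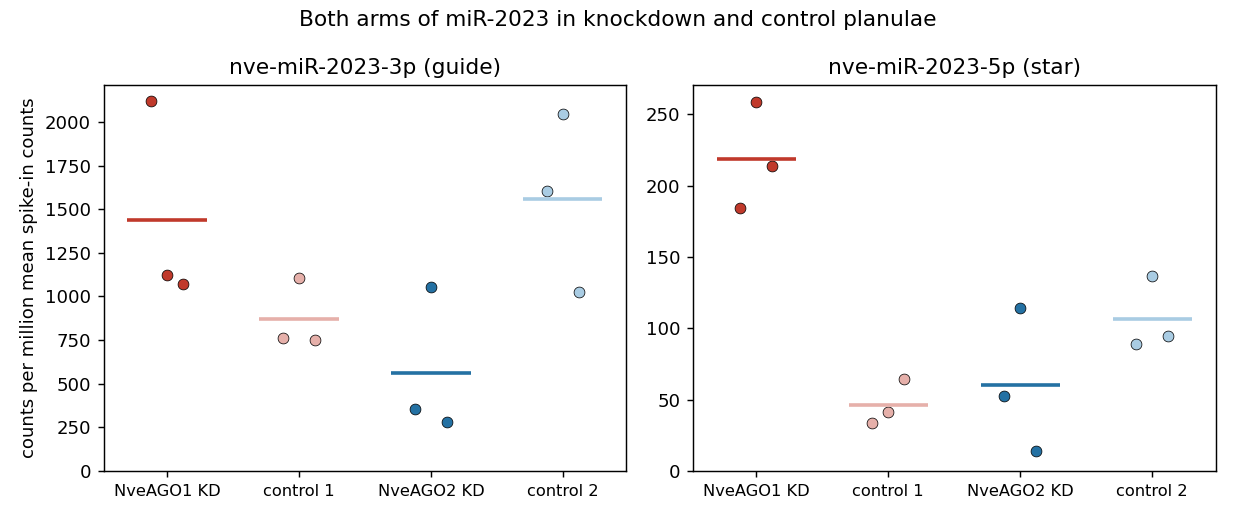
Counts per 1000000 mean spike-in counts of nve-miR-2023-3p (left) and nve-miR-2023-5p (right) in NveAGO1 KD, control 1, NveAGO2 KD and control 2 planulae, 1 point per library and a line at the mean of 3. The star is at 184 to 259 in NveAGO1 KD and at 33.7 to 64.5 in control 1, while the guide overlaps between both KDs and their controls.

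The ratio of the arms needs no spike-in. The star was 8.0%, 18.8% and 16.7% of both arms in NveAGO1 KD and 4.23%, 3.61% and 7.94% in control 1, so the lowest KD library was only just above the highest control. Pooled over the libraries there were 5.69 guides per star in the KD and 18.7 in the control. The guide to star ratio fell by 1.65 on the log2 scale (SE 0.58, adjusted p = 0.014), where 28.1% of 32 miRNAs were called lower. Of the 8 other members of the NveAGO1 list that were tested, 7 were called lower and 0 higher. The change of miR-2023 rests on 26 and 11 star counts, and the adjusted p was 0.061 with DESeq2 and 0.070 to 0.14 without KD replicate 2 or 3 or control replicate 1 or 2. In NveAGO2 KD the star was 13.04%, 9.80% and 4.76%, against 5.26%, 6.25% and 8.43% in control 2. The ratio did not differ detectably there (log2 -0.55, SE 0.70, adjusted p = 0.58), while 4 of the 8 other list members were called higher and 0 lower (12.5% of the 32 miRNAs called in each direction), with a median of 0.89.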

How the data were processed

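Small RNA libraries of 18 Argonaute and IgG IPs and of 12 KD and control planula samples were used. The authors trimmed reads with cutadapt and quantified miRNA arms with the quantifier.pl module of mirDeep2, with default parameters for IPs and without mismatches for KDs, and the deposited IP table holds raw counts per arm, counted before any normalization. The authors' KD table holds raw counts too, with a line in the same columns that gives the mean of the 4 spike-ins and is no count, so its columns were classed as other values. That line was left out. The cutadapt version is not given in the sources used here. Genome-mapped reads per library and the names of guides, stars and the NveAGO1 list came from the supplementary files. 3 arms that repeat the counts of another arm were used once, and a precursor with no named guide was given its more abundant arm.

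Groups were taken from the sample labels. edgeR 4.0.16 (quasi-likelihood test) in R 4.3.3 was fitted once over all IP libraries to the 196 arms (134 guides, 62 stars) that reached 10 counts in 2 or more of them, and once over all KD libraries to the 61 arms that did so in 3 or more. Library sizes were genome-mapped reads between IPs of a stage, sums of miRNA counts between stages and the mean spike-in count in the KDs. For the ratio of arms, both counts of a library entered 1 fit in which the library was a block. It covered 89 miRNAs in the IPs, each with 5 or more star counts, and 32 in the KDs, where 50 guide counts were also required. nve-miR-2023-5p did not pass the KD filter and was tested by exact permutation. The fits were also run on simulated data with large set changes, equal means elsewhere and a fixed spread. Such data are simpler than these libraries, so that run is no check of the results here. Alternatives were other library sizes, DESeq2 1.42.0, other filters, a replicate block and leaving out each library. Python 3.11 with scipy, and ViennaRNA 2.7.2 for the duplex, gave the other values.

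The members, the lists and the tests were chosen with earlier results of these data known. Besides the members, the text names the 5 guides and 3 stars with the highest Pearson r (pseudocount of 1), neighbours in rank, and 4 members of the NveAGO1 list with their stars. Per the study's methods, KD and control zygotes of a replicate came from 1 batch and were injected on 1 day. Same-numbered KD and control libraries deviated from their group means with correlations of -0.27 to 0.30 for NveAGO1 and -0.25 to 0.09 for NveAGO2.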

Additional observations from a re-analysis of the deposited data

Results flagged for a closer look

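The effect of the KDs on nve-miR-2023-3p differed between the Argonautes: the log2 fold change over the control was higher in NveAGO1 KD than in NveAGO2 KD by 2.20 (edgeR interaction, adjusted p = 0.0088), with 0.69 in the former and -1.50 in the latter. The value of 0.69 was not called by itself. Of the 61 arms tested 41.0% were called higher in the same comparison, and their median was 1.07. On the sum of miRNA counts the difference was 0.45 and was not called. The control groups were unlike, with means of 873 and 1558. Dixon's test needs at least 4 samples in a group, so it was not applied to groups of 2 or 3 libraries.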

How the results depend on the processing

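Of 152 values computed under other settings for 28 results, 113 kept their direction and their side of the threshold, and of 136 values without 1 library 115 did. Under other settings 13 values changed direction, 19 were weaker and 7 stronger. Without 1 library, 1 value changed direction, 19 were weaker and 1 stronger. All values here are log2 fold changes, and the cause of a change was not tested. For Argonaute IPs over IgG the median of all arms also fell on the sum of miRNA counts, as given above. For nve-miR-2023-3p the sum of miRNA counts as library size gave 1.14 for NveAGO1 against NveAGO2 in adult males, -3.49 and 1.03 for NveAGO1 against IgG in early planulae and adult males, -2.52 and -0.11 for NveAGO2 against IgG in primary polyps and adult males, and -3.33 for the change of the NveAGO1 to NveAGO2 ratio. TMM factors gave -2.60 for NveAGO1 against IgG in early planulae, -1.79 and 1.53 for NveAGO2 against IgG in primary polyps and adult males, and 0.40 for NveAGO2 of adult males against primary polyps. DESeq2 size factors gave -3.42, -2.50, -0.82 and 0.045 for these 4, and 0.34 for the change of the ratio. Genome-mapped reads gave -0.95 for NveAGO2 of adult males against primary polyps. For nve-miR-2023-5p the sum of miRNA counts, TMM factors and DESeq2 size factors gave 0.87, 1.01 and 0.67 for NveAGO1 against NveAGO2 in early planulae and 0.38, 1.31 and 0.49 for NveAGO2 against IgG in primary polyps. In adult males NveAGO2 against IgG was 1.35 on the sum of miRNA counts and 0.56 with DESeq2 size factors. NveAGO2 of adult males against primary polyps was 0.28 with genome-mapped reads, 1.62 with TMM factors and 1.28 with DESeq2 size factors. In the KDs the sum of miRNA counts, TMM factors and DESeq2 size factors gave -0.39, -0.28 and -0.23 for the guide in NveAGO1 KD and 0.45, 1.07 and 0.99 for the difference between the KDs. The guide in NveAGO2 KD was -0.85 on the sum of miRNA counts and -1.14 with all 6 controls. The star in NveAGO1 KD was 1.52 with all 6 controls (exact permutation p = 0.024), 2.22 with edgeR without a filter and 2.18 with the replicate block added to it. The guide to star ratio in NveAGO1 KD was -1.66 with DESeq2.

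Without 1 library, where a group left with 1 sample was assumed to vary like the others, the guide ranged from 2.38 to 3.50 for NveAGO1 against NveAGO2 in early planulae, from 2.04 to 2.20 in adult males, from -2.14 to 1.24 for NveAGO1 against IgG in early planulae, from 1.43 to 1.73 for NveAGO2 of adult males against primary polyps and from -2.30 to -1.16 in NveAGO2 KD. The star ranged from 2.22 to 4.96 for NveAGO2 against IgG in primary polyps. The ratio of the arms ranged from 2.77 to 4.06 for NveAGO1 against NveAGO2 in early planulae and from -2.04 to -1.39 in NveAGO1 KD. The replicate block was fitted for the comparisons of IPs within a stage, the change of their ratio and the KDs, and not for comparisons between stages or the ratio of arms. It changed no call of the same fit without it, with 2.12 for the guide in NveAGO1 against NveAGO2 of adult males, -0.81 for NveAGO1 against IgG in early planulae and 2.30 for the difference between the KDs. Libraries of NveAGO1 and NveAGO2 with the same number correlated at -0.20 in planulae, 0.43 in polyps and 0.66 in males, and the labels do not pair them. Star counts of 1 to 14 in early and KD planulae limit what can be said of nve-miR-2023-5p there.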
